A study of Mus musculus with 6 samples.

Results

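A set of 30 genes of red cell formation was followed on 6 Affymetrix arrays of mouse bone marrow cells in which Rad21, a core subunit of the cohesin ring, had been targeted. They cover erythroid transcription factors, heme synthesis, iron import, the red cell membrane and its skeleton, gas exchange, blood group proteins and the erythropoietin receptor. Membership was set by gene name, from a list drawn up with earlier results of these data known. Each gene was represented by the probe set annotated to it alone that had the highest mean over the 6 arrays. All 30 had such a probe set, among 12393 genes in all. The cells came from the bone marrow of C57/BL6 mice, 6 to 8 weeks of age, depleted of lineage-positive cells, infected for 24 h with a lentivirus, selected with puromycin at 1 µg/mL, sorted as live cells and plated at 10000 cells per mL in methylcellulose with cytokines. RNA was taken on day 7. The groups were Rad21 shRNA1, Rad21 shRNA2 and empty vector, with 2 arrays each. The labels name neither the cytokines, so that it is not given whether erythropoietin was present, nor the number of mice, and there was no non-targeting shRNA. Nothing in the labels says that replicates came from separate cultures, so p-values here speak to array-to-array spread alone, and that spread could be technical.

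Red cell precursors arise from progenitors shared with megakaryocytes and, further back, with mast cells and other myeloid cells. The DNA-binding factors Gata1 and Klf1 switch on the globin, heme and membrane genes in them. Heme is built from glycine and succinyl-CoA by a chain of enzymes that begins and ends in the mitochondrion, with iron brought in through the transferrin receptor, while spectrin and ankyrin tie the band 3 anion exchanger to the membrane skeleton. In marrow many of these genes are known as markers of erythroblasts, but not all are limited to them. Gata1, Gfi1b and Nfe2, for example, are also used by megakaryocytes, and Gata1 by mast cells.

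Promoter sequences from RefSeq (assembly GRCm38.p6) were found for 23 of the 30 genes, as 26 promoters. The 250 bases before each start were searched on both strands for GATA motifs, spelled AGATAA, or else AGATAG, or else TGATAA, or else TGATAG, and for the CACCC-type motif CCNCNCCC, which also takes in GC-rich boxes and G runs. A GATA motif was found in 15 of the 26 promoters (57.7%), against 26.5% of all 32851 promoters in the table, and the CACCC-type motif in 15 (57.7%), against 45.9%. Both were in 6 (23.1%), against 8.19%. A match is only a description of these letters. No entry was used for Ank1, Car1, Car2, Fech, Nfe2, Slc25a37 and Slc4a1. The last 150 bases before the start are printed for 5 genes whose shRNA arrays all lay below both empty-vector arrays and that hold a GATA motif here, and for Alas2, which makes the entry enzyme of heme synthesis. Capitals mark both motifs. The stretches are chr2:28621983-28622132 (minus strand) for Gfi1b, chr4:46404184-46404333 (minus) for Hemgn, chr9:21963577-21963726 (minus) for Epor, chr16:58670058-58670207 (plus) for Cpox, chr17:40810999-40811148 (plus) for Rhag and chrX:150547267-150547416 (plus) for Alas2, each read 5′ to 3′ on the gene's strand.
Gfi1b: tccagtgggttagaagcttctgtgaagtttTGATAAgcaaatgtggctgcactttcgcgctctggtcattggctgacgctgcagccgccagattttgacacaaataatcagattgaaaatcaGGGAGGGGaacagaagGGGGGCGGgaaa
Hemgn: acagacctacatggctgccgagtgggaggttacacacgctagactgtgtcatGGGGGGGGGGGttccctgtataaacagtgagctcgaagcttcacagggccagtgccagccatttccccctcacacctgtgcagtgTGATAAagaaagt
Epor: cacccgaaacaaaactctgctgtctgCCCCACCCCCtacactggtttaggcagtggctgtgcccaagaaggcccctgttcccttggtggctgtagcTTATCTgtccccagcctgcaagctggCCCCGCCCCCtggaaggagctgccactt
Cpox: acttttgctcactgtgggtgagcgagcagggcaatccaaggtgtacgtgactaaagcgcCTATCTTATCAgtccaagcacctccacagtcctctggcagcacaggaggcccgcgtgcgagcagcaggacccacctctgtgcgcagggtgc
Rhag: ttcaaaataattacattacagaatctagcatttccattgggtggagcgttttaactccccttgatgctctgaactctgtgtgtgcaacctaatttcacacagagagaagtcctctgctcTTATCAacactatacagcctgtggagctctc
Alas2: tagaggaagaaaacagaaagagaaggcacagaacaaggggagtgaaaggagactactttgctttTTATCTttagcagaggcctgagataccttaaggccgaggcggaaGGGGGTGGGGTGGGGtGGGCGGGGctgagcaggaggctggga

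In Rhag and Hemgn the GATA motif began 31 and 13 bases before the start, and in Cpox 2 of them overlapped, at 91 and 86 bases.

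The arrays differed in quality. Empty-vector replicate 1 had a Gapdh 3′ control probe set 2.42 log2 units above the 5′ one, against -0.078 to 0.017 on the other 5 arrays, and an Actb gap of 2.55, against 0.22 to 0.33. Array medians ran from 100.2 to 104.9 on the linear scale. Rad21 stood at 9.63 and 9.14 with shRNA1, 9.50 and 9.11 with shRNA2 and 11.14 and 10.49 with empty vector (log2 intensity, replicates 1 and 2), lower on every shRNA array, a difference of -1.47 ± 0.26 (standard error) that did not pass among all genes (limma, adjusted p = 0.0558, range over the alternatives 0.00721 to 0.203). Each result on the genes of red cell formation below rests on these 2 unlike control arrays, so values are given for each array.

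Empty-vector replicate 1 carried the highest value of all 6 arrays in 27 of the 30 genes, as it did in 35.5% of all genes. In 17 of them it was more than 1 log2 unit, or 2-fold, above each of the other 5 arrays, against 1.3% of all genes. Against empty-vector replicate 2 alone it was more than 1 unit higher in 19 and more than 1 unit lower in none, against 4.13% and 6.74% of all genes. The median gap, replicate 1 minus replicate 2, was 1.24 over the 30 genes and 0.085 over all genes. These are single arrays, so the gap has no replicate check. The 30 genes were chosen with earlier results of these data known, so these shares describe the list and are no test. The part of this array's 3′ to 5′ control difference in the gap was not tested.

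**Figure D1:**
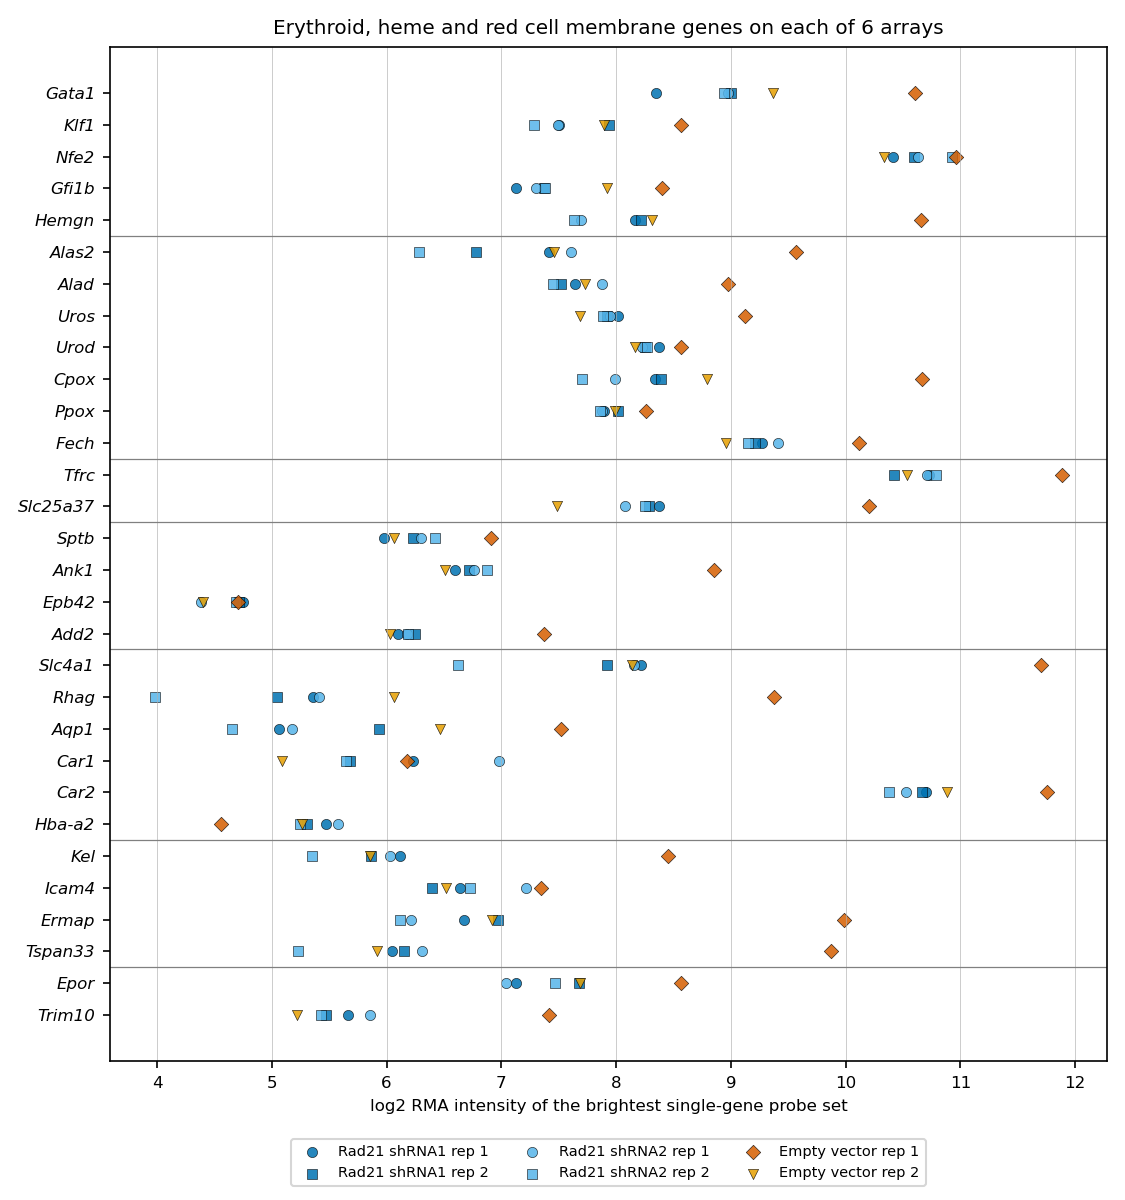
Log2 RMA intensity (x axis) of each of the 30 genes (rows, grouped by role) on each of the 6 arrays, 1 point per array, with Rad21 shRNA1 and shRNA2 in blue and empty vector in orange. Empty-vector replicate 1 (diamonds) is the highest point in 27 rows, while replicate 2 (triangles) lies within the range of the 4 shRNA arrays in 13.

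Among the transcription factors, Gata1 and Gfi1b were lower on all 4 shRNA arrays than on either empty-vector array. Gata1 stood at 8.35 and 9.01 with shRNA1, 8.98 and 8.94 with shRNA2, and 10.60 and 9.37 with empty vector. Gfi1b, a repressor needed for erythroid and megakaryocyte growth, stood at 7.13 and 7.38, 7.30 and 7.38, and 8.40 and 7.92 in the same order. For Gfi1b the gap between the empty-vector arrays (0.48) was smaller than that between replicate 2 and the nearest shRNA array (0.54), whereas for Gata1 the control arrays lay 1.24 apart and the nearest shRNA array 0.36 below replicate 2.

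Hemgn, a nuclear protein made in blood precursors, stood at 8.17 and 8.22 with shRNA1, 7.70 and 7.63 with shRNA2, and 10.66 and 8.31 with empty vector. Here replicate 2 of the empty vector was only 0.089 above the nearest shRNA array, so nearly all of the separation was on replicate 1. Klf1, the activator of the adult beta-globin gene, reached 8.57 on empty-vector replicate 1, and its replicate 2 (7.89) lay just under shRNA1 replicate 2 (7.94). Nfe2, a globin enhancer factor also used in platelet formation, was bright everywhere, from 10.41 to 10.92 on the shRNA arrays and at 10.96 and 10.33 with empty vector. Its groups overlapped.

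The enzymes of heme synthesis differed among themselves. Alas2, the erythroid form of the entry enzyme, stood at 7.41 and 6.78 with shRNA1, 7.61 and 6.28 with shRNA2, and 9.57 and 7.46 with empty vector, so replicate 2 of the empty vector lay within the shRNA range. Cpox, which makes protoporphyrinogen, stood at 8.34 and 8.39, 7.99 and 7.70, and 10.66 and 8.79 in the same order. Cpox was the only one of the 7 enzymes with every shRNA array below both empty-vector arrays. Among all genes 13.6% had this pattern, so it does not by itself set Cpox apart.

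Alad, which joins 2 aminolevulinic acids, and Fech, which inserts the iron, were highest on empty-vector replicate 1 (8.97 and 10.12). On replicate 2 they stood at 7.73 and 8.96, against shRNA ranges of 7.45 to 7.88 and 9.15 to 9.41. Uros, the ring-closing enzyme, had shRNA values of 7.88 to 8.01, lying between empty-vector replicate 1 (9.12) and replicate 2 (7.69). By their brightest probe sets Urod and Ppox moved least on this scale. Their gaps between the empty-vector arrays were 0.40 and 0.28, and their differences between the shRNA and empty-vector means were -0.083 ± 0.16 and -0.21 ± 0.14. A dimmer second Ppox set stood at 5.47 and 3.64 with empty vector, a gap of 1.83, against 3.77 to 4.13 on the shRNA arrays.

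Both iron import genes were high on empty-vector replicate 1 and not on replicate 2. Tfrc, the transferrin receptor, stood at 10.72 and 10.42 with shRNA1, 10.71 and 10.79 with shRNA2, and 11.88 and 10.54 with empty vector. Slc25a37, or mitoferrin 1, which carries iron into the mitochondrion, stood at 8.37 and 8.29, 8.08 and 8.25, and 10.20 and 7.48. Its 4 shRNA arrays lay close together between the 2 empty-vector arrays, which were 2.72 apart. The array's own control probe sets for Tfrc showed a 3′ to 5′ gap of 2.61 on empty-vector replicate 1, against 1.77 to 2.24 elsewhere. The 5′ set was dim everywhere, at 3.70 on replicate 1 and 3.42 to 3.96 elsewhere. The wider gap came from the 3′ set, at 6.30 against 5.36 to 5.93.

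Among membrane skeleton genes, Ank1, the ankyrin that holds band 3, stood at 6.60 and 6.72 with shRNA1, 6.76 and 6.87 with shRNA2, and 8.86 and 6.51 with empty vector. Add2, an adducin that caps short actin filaments, had shRNA values of 6.10 to 6.25, and 7.37 and 6.03 with empty vector. Sptb, or beta-spectrin, had shRNA values of 5.98 to 6.42, and 6.91 and 6.07 with empty vector. In all 3 the shRNA arrays lay near or above empty-vector replicate 2 and below replicate 1.

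Transport genes held some of the largest gaps in the data. Slc4a1, the band 3 anion exchanger, stood at 8.22 and 7.92 with shRNA1, 8.16 and 6.62 with shRNA2, and 11.71 and 8.14 with empty vector. Rhag, which carries ammonia and anchors the Rh proteins, stood at 5.36 and 5.04, 5.41 and 3.98, and 9.38 and 6.06. The gap between the empty-vector arrays was 3.57 for Slc4a1 (11.9-fold) and 3.31 for Rhag (9.94-fold), ranks 3 and 5 among all 12393 genes from the largest rise of replicate 1 over replicate 2. For Rhag all 4 shRNA arrays lay below both empty-vector arrays, by at least 0.65, and for Slc4a1 they did not.

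Aqp1, a water channel, stood at 5.06 and 5.94 with shRNA1, 5.17 and 4.65 with shRNA2, and 7.52 and 6.47 with empty vector, without overlap. Car2, the fast carbonic anhydrase, was bright on every array, at 10.70 and 10.66, 10.52 and 10.38, and 11.76 and 10.88, also without overlap. Car1, its slower relative, overlapped between groups, at 6.23 and 5.68, 6.98 and 5.65, and 6.18 and 5.09. Its highest value was on shRNA2 replicate 1, and every shRNA array lay above empty-vector replicate 2.

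Blood group and surface genes included the largest rise of empty-vector replicate 1 over replicate 2 among all genes. Tspan33, a tetraspanin expressed in erythroblasts, stood at 6.05 and 6.15 with shRNA1, 6.31 and 5.22 with shRNA2, and 9.88 and 5.91 with empty vector. By this probe set, the brightest of the gene, its gap of 3.96 (15.6-fold) was rank 1 of 12393. The other Tspan33 probe sets had smaller gaps, from 1.15 to 2.44. Ermap, which carries the Scianna antigens in humans, had shRNA values of 6.12 to 6.97, and 9.99 and 6.92 with empty vector (rank 6). Kel, the Kell endopeptidase, had shRNA values of 5.35 to 6.11, and 8.45 and 5.86 with empty vector (rank 15). In these 3 genes replicate 2 of the empty vector lay within the shRNA range. Icam4, an adhesion molecule, differed less, with shRNA values of 6.40 to 7.22, and 7.34 and 6.52 with empty vector.

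Epor, the erythropoietin receptor, stood at 7.13 and 7.67 with shRNA1, 7.04 and 7.47 with shRNA2, and 8.57 and 7.69 with empty vector. The separation from empty-vector replicate 2 was 0.015 units, which is far under the 0.55 between the shRNA1 arrays. Trim10, a ring-finger protein of erythroid cells, had shRNA values of 5.43 to 5.85, and 7.41 and 5.22 with empty vector.

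**Figure D2:**
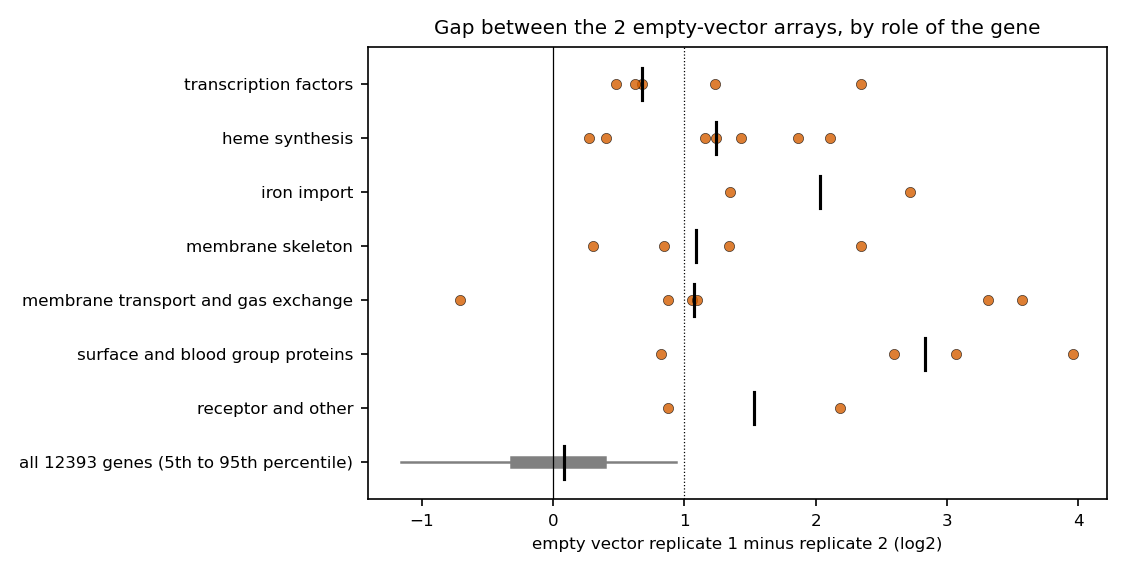
Empty-vector replicate 1 minus replicate 2 in log2 units (x axis), 1 point per gene, by role (rows), with black bars for medians; the grey bar is the interquartile range of all 12393 genes and the thin line their 5th to 95th percentile. The dotted line marks 1 unit. The role medians run from 0.67 for transcription factors to 2.83 for surface and blood group proteins, against 0.085 for all genes.

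Car1, Epb42 and Hba-a2 were the 3 genes that did not have their highest value on empty-vector replicate 1. Hba-a2, an adult alpha-globin gene, had a dim probe set at 5.47 and 5.30 with shRNA1, 5.58 and 5.24 with shRNA2, and 4.56 and 5.26 with empty vector, so it was lowest on replicate 1. Hba-a2 has a near-identical copy, and 4 further probe sets are annotated to more than 1 adult alpha- or beta-globin gene, so they cannot be given to a single one and lie outside the 30. These shared globin probe sets ran from 8.58 to 13.25 on the shRNA arrays, from 12.49 to 14.22 on empty-vector replicate 1 and from 10.65 to 13.60 on replicate 2, and the brightest value of any probe set on any array was 14.33. In 4 of 4 every shRNA array lay below both empty-vector arrays, a pattern seen in 13.6% of all genes. All but 1 of the 4 are annotated to the same alpha-globin pair, so they are not 4 separate genes. The shRNA mean was lower than empty-vector replicate 2 alone by 0.36 to 1.18 log2 units (differences of -0.36 to -1.18). The lowest array was shRNA2 replicate 2. These shared probe sets were not tested. By these shared sets adult globin RNA, the defining product of erythroid cells, was thus bright on every array. The single-gene Hbb-b2 set was dimmer, at 7.06 to 7.41 on the shRNA arrays and 8.35 and 7.15 with empty vector. Its replicate 2 of the empty vector lay within the shRNA range. The single-gene Hba-a1 set was dim, at 3.94 to 4.57 on the 6 arrays. In such mixed cultures fewer erythroid cells and less RNA per cell cannot be told apart.

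Epb42, protein 4.2 of the membrane skeleton, depended on the probe set. The brighter one was dim and flat, with shRNA values of 4.38 to 4.75, and 4.71 and 4.40 with empty vector. The dimmer one stood at 5.34 on empty-vector replicate 1 and 3.40 on replicate 2, against 2.95 to 3.48 on the shRNA arrays. Over the 9 genes with 2 or more single-gene probe sets there were 17 further ones, 14 of them highest on empty-vector replicate 1 and 7 more than 1 unit above replicate 2. Fech was the clearest conflict. Its brightest probe set was 1.16 higher on replicate 1 than on replicate 2, and another stood at 7.31 on replicate 1 and 8.08 on replicate 2, the lowest of 6 arrays. The second Slc4a1 probe set had a gap of 4.12 and the second Cpox set one of 2.73. The dimmest Slc4a1 set was flat, at 3.95 to 4.21 on the 6 arrays, with a gap of 0.019.

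**Figure D3:**
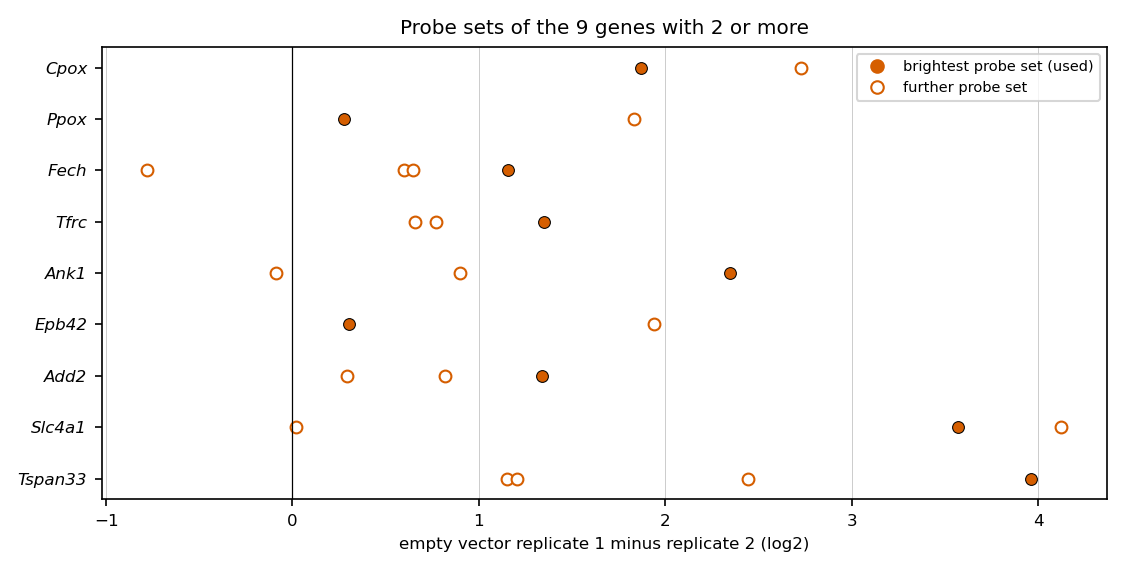
Empty-vector replicate 1 minus replicate 2 in log2 units (x axis) for each single-gene probe set of the 9 genes with 2 or more (rows). Filled points are the brightest set, which represents the gene, and open points the 17 others. Fech and Ank1 each have an open point below 0.

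The comparison of both Rad21 shRNAs with empty vector asked which of these genes changed on knockdown. None of the 30 passed over all genes by limma (Benjamini-Hochberg adjusted p below 0.05), against 2.13% of all genes, and 10 had an unadjusted p below 0.05, against 16.7% of all genes. The difference was negative in 27 genes, against 53.6% of all genes, with a median of -0.72 against -0.023. The smallest p-values were those of Gfi1b (-0.86 ± 0.18, n = 4 shRNA and 2 empty-vector arrays, limma adjusted p = 0.0872, range over the alternatives 0.00723 to 0.332) and Aqp1 (-1.79 ± 0.39, adjusted p = 0.0941, range 0.0105 to 0.293). Rhag had the largest difference, -2.77 ± 0.92 (limma adjusted p = 0.220), followed by Slc4a1 at -2.19 ± 0.99 (0.341), Tspan33 at -1.96 ± 1.04 (0.4195) and Ermap at -1.96 ± 0.79 (0.293).

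All 4 shRNA arrays lay below both empty-vector arrays in 8 of the 30 genes, against 13.6% of all genes, and above both in none, against 11.5%. The 8 were Gata1, Gfi1b, Hemgn, Cpox, Rhag, Aqp1, Car2 and Epor. Beside these 8, megakaryocyte and mast cell genes also lay lower on the shRNA arrays, as given below, and their part in the values of Gata1 and Gfi1b was not tested.

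The result turned on which empty-vector array was kept. Without replicate 1 the median difference of the 30 genes was 0.0027, against 0.018 for all genes, and 1 of 30 passed, against 5.24% of all genes, with 1 rising against 1.97% and 0 falling against 3.27%. That gene was Slc25a37, which rose by 0.77 ± 0.14 (limma adjusted p = 0.0458) against the single remaining control. With both controls its difference was -0.59 ± 0.70 (limma adjusted p = 0.741), and without replicate 2 it was -1.95 (0.00246), so its direction turned with the control kept. Without replicate 2 the median was -1.23 and 24 of 30 passed, 23 of them falling and Hba-a2 rising, against 25.2% of all genes in either direction and 12.1% falling. Both fits assume that the lone control array varies like the other groups.

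Empty-vector replicate 2 lay above all 4 shRNA arrays in 8 of the 30 genes, below all 4 in 9 and among them in 13, against 26.4%, 29.4% and 44.3% of all genes, which are shares near those of the 30. Without replicate 1 the most negative differences of the 30 were those of Aqp1 and Rhag, at -1.26 ± 0.37 and -1.11 ± 0.51, and neither passed. Cpox differed by -0.69 ± 0.16 (limma adjusted p = 0.0761) and Gfi1b by -0.62 ± 0.15 (0.0863). Slc4a1 and Ermap differed by only -0.41 ± 0.54 and -0.42 ± 0.16. Tspan33 and Kel, wide apart on the 2 controls, differed by 0.020 ± 0.39 and -0.014 ± 0.27.

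**Figure D4:**
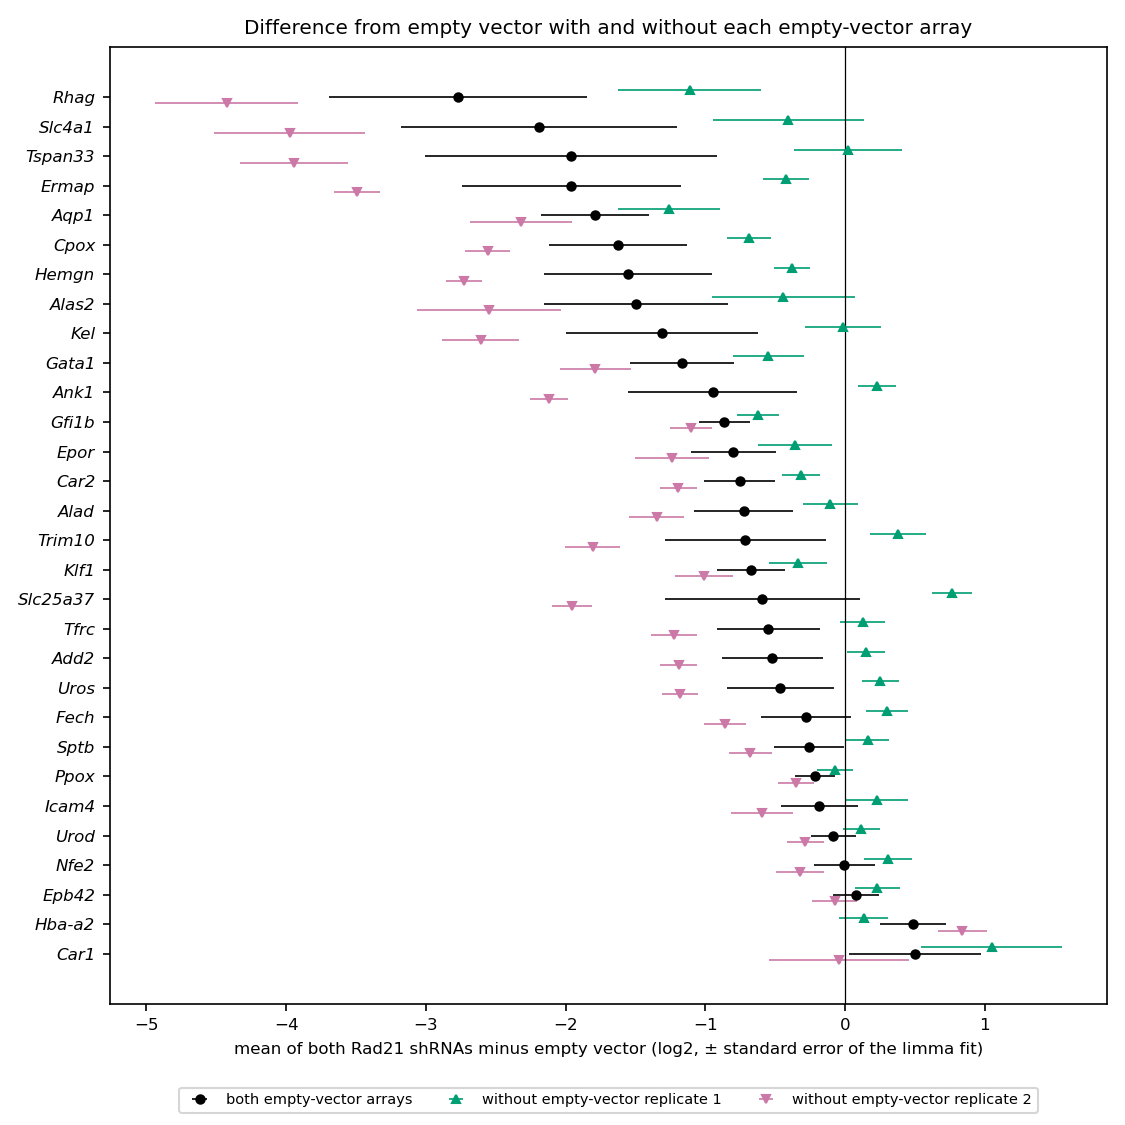
Mean of both Rad21 shRNAs minus empty vector in log2 units (x axis, bars are the standard error of the limma fit) for each of the 30 genes (rows), with both empty-vector arrays (black), without replicate 1 (green) and without replicate 2 (pink). Black points are by construction the midpoints of green and pink ones, and the green median is 0.0027.

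Each shRNA was also set against empty vector alone. For shRNA1 none of the 30 passed by limma, against 0.234% of all genes, with 3 at an unadjusted p below 0.05 (9.3% of all genes), a negative difference in 27 (55.2%) and a median of -0.68. For shRNA2 none passed, against 2.83%, with 9 at an unadjusted p below 0.05 (17.8%), a negative difference in 26 (51.6%) and a median of -0.75. These comparisons share the empty-vector arrays. Set directly against each other, shRNA1 minus shRNA2, none of the 30 differed by limma (0% of all genes passed) and none had an unadjusted p below 0.05, against 4.89% of all genes. The difference was negative in 13 genes, against 55% of all genes, the median was 0.076 and the values ran from -0.45 in Icam4 to 0.68 in Slc4a1. Both shRNA2 arrays lay below both shRNA1 arrays in 8 genes, against 17.7% of all genes, and above both in 4, against 23.9%. These tests used a spread widened by the empty-vector pair, so a miss does not show that the shRNAs act alike.

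Within shRNA2 the replicates were more than 1 unit apart in 5 genes, against 0.944% of all genes, and within shRNA1 in none, against 1.11%. The 5 were Slc4a1 (1.53), Rhag (1.43), Car1 (1.33), Alas2 (1.33) and Tspan33 (1.08), each lower on replicate 2. That array was the lowest of the 6 in 13 of the 30 genes, against 10.5% of all genes. For these genes the arrays of a single shRNA were thus up to 1.53 units apart.

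Further genes of the pathway were taken from lists of general knowledge. Their counts stand beside 2.13% of all genes called and 16.7% with an unadjusted p below 0.05. Of 5 measured globin genes 1 fell, the embryonic Hbb-y, which stood at 4.72 and 4.59 with shRNA1, 4.39 and 4.51 with shRNA2 and 5.53 and 5.49 with empty vector (-0.95 ± 0.13, limma adjusted p = 0.0316, range over the alternatives 0.00782 to 0.185). Its empty-vector arrays were 0.041 apart. Of 13 late erythroid genes 1 fell, Tent5c, a poly(A) polymerase, which stood at 7.71 and 7.75, 6.65 and 6.25, and 10.48 and 9.44 (-2.87 ± 0.305, limma adjusted p = 0.0162, range 0.00240 to 0.0960). Both calls were lost when any single shRNA array was left out. No other heme and iron gene (19 measured), membrane gene (14) or erythroid regulator (22) passed by limma, with 3, 4 and 3 at an unadjusted p below 0.05. Of these, 3 of 19 and 3 of 22 lie near the share of all genes.

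The smallest p-values in those 3 lists were those of the iron transporter Slc11a2 (-0.56 ± 0.15) and Hebp1 (-0.68 ± 0.20), of the urea transporter Slc14a1 (-1.89 ± 0.43) and Gypc (-0.40 ± 0.15), and of the progenitor factor Gata2 (-0.98 ± 0.23) and the Gata1 cofactor Zfpm1 (-1.12 ± 0.34), none of which passed. The median gap between empty-vector replicates 1 and 2 was 0.58 for late erythroid, 0.47 for globin, 0.45 for regulator, 0.39 for membrane and -0.033 for heme and iron genes. Gaps of this size were not limited to erythroid lists, since the median was 0.60 for eosinophil, 0.43 for neutrophil and 0.20 for megakaryocyte genes, and -0.50 for mast cell and -0.93 for macrophage genes. The neutrophil gene Camp, chosen after its values were seen, was 3.77 higher on replicate 1, rank 2 of all genes. The regulator Sox6, chosen after its values were seen, was 3.04 higher on empty-vector replicate 1 than on replicate 2 (rank 7 of all genes). For the ferritin gene Fth1, likewise chosen, the same gap was -1.57.

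Markers of other cells that such cultures can hold were counted against the same shares of all genes, 2.13% called and 16.7% with an unadjusted p below 0.05. Of 10 megakaryocyte genes 1 fell (Clec1b, -2.68 ± 0.37, limma adjusted p = 0.0329, range 0.00562 to 0.154), 8 had an unadjusted p below 0.05, and their mean level was 8.41 to 9.33 on the shRNA arrays, 9.97 on empty-vector replicate 1 and 9.78 on replicate 2. Of 9 mast cell genes Fcer1a (-2.04 ± 0.26) and Kit (-1.61 ± 0.25) fell and 6 had an unadjusted p below 0.05, with mean levels of 9.65 to 10.35 on the shRNA arrays, 10.74 and 11.58. Of 10 neutrophil genes 5 rose, among them Elane (4.98 ± 0.21) and Mpo (5.34 ± 0.49), and 9 had an unadjusted p below 0.05, with mean levels of 12.08 to 12.89 on the shRNA arrays, 10.36 and 9.41. The 30 genes averaged 7.09 to 7.40 on the shRNA arrays, 8.90 on empty-vector replicate 1 and 7.39 on replicate 2. The calls of Clec1b, Fcer1a, Kit and Mpo, but not that of Elane, were lost when some single shRNA arrays were left out.

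Macrophage genes (8 measured, none called, Csf1r at 0.71 ± 0.16 and Mrc1 at -1.60 ± 0.31) averaged 11.29 to 12.28 on the shRNA arrays, 11.09 on empty-vector replicate 1 and 12.26 on replicate 2. They were lower on replicate 1 in 8 of 8. Eosinophil genes (6 measured, none called, Ccr3 at -0.56 ± 0.15 and Il5ra at 0.56 ± 0.18) averaged 7.86 to 8.10, 8.55 and 7.83. Their part in the erythroid values was not tested.

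**Figure D5:**
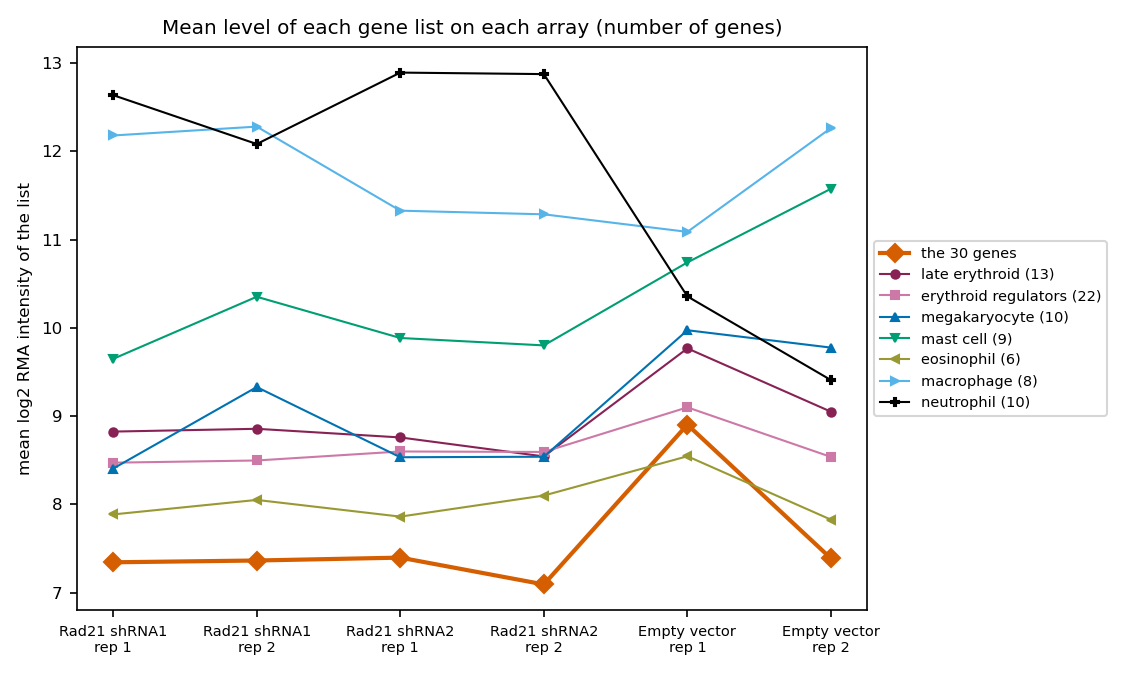
Mean log2 RMA intensity (y axis) of each gene list on each array (x axis); lines only join the points of a list, and the number of genes is in the legend. The 30 genes average 7.09 to 7.40 on the shRNA arrays, 8.90 on empty-vector replicate 1 and 7.39 on replicate 2.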

How the data were processed

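The authors deposited 1 RMA intensity for each probe set on each array; that RMA was used is per the submitters' processing notes. This method corrects background, quantile-normalizes and summarises probes. For its version and software, and for joint or separate processing of the arrays, the sources used here give nothing. The 22690 values per array ran from 4.96 to 20614.6, so log2 was taken, with no pseudocount, filter or further normalization. RMA compresses differences of dim probe sets, and the number of arrays limits the precision.

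Gene names of probe sets came from GEO's platform annotation (20380 with 1 gene were used, 691 had several, 1606 were not listed), with symbols checked against RefSeq GRCm38.p6. Control probe sets of the array were not tested. Groups came from the sample titles. Differences were fitted with limma 3.58.1 in R 4.3.3 (lmFit, eBayes, 3 groups, 3 residual and 2.91 prior degrees of freedom), two-sided, with Benjamini-Hochberg adjustment over all 12393 genes and a threshold of 0.05. The ± values are standard errors of this fit. Plots were made with matplotlib 3.10.9. The fit was tested on simulated data with equal spread on all arrays, so that test does not cover an outlying control array.

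The genes and lists were chosen with earlier results of these data known. From each further list the text names called genes (up to 4 by p), or else the 2 with the smallest p. The alternatives were 2 filters on dim genes, the mean of all probe sets, quantile normalization, median centring, an intensity trend, robust settings, array weights, the replicate number as a block and leaving out each array. The labels do not say that equal replicate numbers share a culture or day.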

Additional observations from a re-analysis of the deposited data

How the results depend on the processing

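The count of called genes among the 30 was 0 for both shRNAs together, for each shRNA and for shRNA1 minus shRNA2 with every alternative that kept all 6 arrays, including the replicate block (0 called, median -0.72). With these alternatives the medians moved by less than 0.56, the pooled within-group standard deviation of the median of the 30 genes per array. That spread includes the wide gap between the empty-vector arrays, so it is a loose limit. The array weights were the same for both empty-vector arrays (0.33), so that alternative could not set replicate 1 apart from replicate 2. Leaving out 1 array in turn gave 0 to 24 called and medians of -1.23 to 0.0027 for both shRNAs, 0 to 23 and -1.25 to 0.018 for shRNA1, and 0 to 23 and -1.31 to -0.090 for shRNA2. The highest counts were without empty-vector replicate 2 and the median nearest 0 without replicate 1. Without replicate 2 the share of all genes called for both shRNAs together was higher too, as given above. For each shRNA alone this share was not counted with any array left out. The counts for each shRNA alone are thus not read as a result. For shRNA2 the 1 call without replicate 1 was Cpox. Without replicate 2 the shRNA arrays lay below the remaining control in 27 genes, and over all 6 arrays left out in turn the count ran from 8 to 27, with at most 11 where an array other than empty-vector replicate 2 was left out. This alternative was chosen after seeing the data. The share of all genes with the shRNA arrays below replicate 1 alone was not counted. Replicate 1 was the highest of 6 arrays in 35.5% of all genes, so the share beside the 27 is at least that. Without replicate 1 the count was 8, against 26.4% of all genes with replicate 2 above all 4 shRNA arrays. The counts with an shRNA array left out have no share beside them and are not read as a result.

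Differences for both shRNAs that changed sign when 1 array was left out had these ranges: Nfe2 -0.32 to 0.31, Uros -1.18 to 0.25, Urod -0.28 to 0.12, Fech -0.86 to 0.30, Tfrc -1.22 to 0.12, Slc25a37 -1.95 to 0.77, Sptb -0.68 to 0.16, Ank1 -2.12 to 0.23, Epb42 -0.074 to 0.23, Add2 -1.19 to 0.15, Car1 -0.044 to 1.05, Icam4 -0.60 to 0.23, Tspan33 -3.94 to 0.020 and Trim10 -1.81 to 0.38. Nfe2 was 0.022 with arrays centred on their medians. With the mean of all probe sets Fech was 0.0033 and Epb42 -0.49. Leaving out a control array moves these values by its construction, since the controls lie apart; the cause of the gap between the controls was not tested. Replicates with the same number deviated together, at r = 0.20 and 0.15 across genes between each shRNA and empty vector and 0.58 between the shRNAs, which is a hint from 2 numbers, not from the design. With the block Rad21 (adjusted p = 0.0166) and Mrc1 (0.0187) passed.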
